A study of Mus musculus with 8 samples.

Results

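This account concerns 33 interferon-stimulated and antigen presentation genes in the livers of mice given resmetirom and of control mice. They were taken by name from a table of 22013 genes. The name matched directly for 32 of them, and Ddx58, which the table lists under the newer symbol Rigi, was matched by its gene identifier. They fall into 18 targets of type I interferon, 5 genes known mainly for induction by interferon-γ, 5 genes of MHC class I presentation and 5 genes of MHC class II presentation. The study used a diet-induced model of metabolic dysfunction-associated steatohepatitis, an inflamed and scarring form of fatty liver disease. Poly(A)-selected liver RNA was sequenced in 8 libraries, 4 titled for resmetirom (Rem) and 4 titled as controls. In the design text, mice ate a diet of fructose, palmitate and cholesterol (FPC) for 12 weeks, and resmetirom, a liver-directed agonist of thyroid hormone receptor β, was injected intraperitoneally at 5 mg/kg/day for the last 8 of them, starting after week 4. The vehicle was 0.5% carboxymethyl cellulose-sodium with 0.4% Tween-80. For the controls, neither a diet nor a vehicle is named on the libraries' own labels, and the sources used here do not give strain, sex or age. Nor do they say that the 4 libraries of a group came from separate animals, so a p-value here reflects only library-to-library spread, which may be technical.

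Type I interferons bind a receptor found on nearly all cells and act through a complex that contains Stat2 and Irf9, which binds the interferon-stimulated response element (ISRE) and turns on antiviral genes. Interferon-γ, made mainly by T and NK cells, acts at gamma-activated sites (GAS) and through Irf1, and raises guanylate-binding proteins, immunity-related GTPases and the MHC. MHC class I displays peptides from inside the cell on almost every cell type, hepatocytes included, while MHC class II is carried mainly by macrophages, dendritic cells and B cells and depends on the coactivator Ciita.

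Promoter stretches of 6 genes, with at least 1 from each group, are printed because letter matches to response elements differed between the groups. A missing match does not show that a gene lacks the element. The groups are compared below by level. A window of 250 bases before to 50 bases after the annotated start (RefSeq, GRCm38.p6) was given for 27 of the 33 genes. Matches were sought on both strands to the ISRE (GAAA, any 2 bases, GAAA), the GAS (TTCNNNGAA) and the CCAAT box (CCAAT), and they are matches of letters, not measured binding. Capitals mark the ISRE match in Isg15, Ifit3, Irgm1 and B2m and the CCAAT box in H2-Aa and H2-Eb1, and every stretch runs 5′ to 3′ on the strand of its gene.
Isg15, chr4:156200859-156200908, minus strand: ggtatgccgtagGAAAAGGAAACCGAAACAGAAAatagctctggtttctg
Ifit3, chr19:34583364-34583423, plus strand: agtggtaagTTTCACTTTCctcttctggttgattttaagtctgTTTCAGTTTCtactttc
Irgm1, chr11:48871431-48871480, minus strand: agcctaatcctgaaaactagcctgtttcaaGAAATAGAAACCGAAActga
B2m, chr2:122147537-122147586, plus strand: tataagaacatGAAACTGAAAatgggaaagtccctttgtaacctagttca
H2-Aa, chr17:34287854-34287933, minus strand: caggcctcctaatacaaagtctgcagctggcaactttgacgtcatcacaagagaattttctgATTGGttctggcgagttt
H2-Eb1, chr17:34305757-34305846, plus strand: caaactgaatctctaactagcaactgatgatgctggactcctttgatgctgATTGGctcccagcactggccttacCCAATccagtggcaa

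The capitals of Isg15 hold 3 overlapping ISRE matches and those of Irgm1 hold 2 overlapping ones, while the pair in Ifit3 lies apart and on the opposite strand. An ISRE match was present in 10 of the 15 type I targets with a window, in 4 of the 5 interferon-γ-inducible genes, in 1 of the 5 class I genes (B2m) and in 0 of the 2 class II genes. Over all 27025 genes with a window, 3.99% held one. GAS matches were present in 6 of the 27 genes with a window (22.2%), against 9.55% of all genes. The CCAAT box was in the windows of all 5 class I genes and both class II genes, but 41.1% of all genes held it too.

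Total counts ran from 16787561 to 18682190 in the resmetirom libraries and from 17436759 to 19887539 in the control libraries. Levels per library are given as CPM, counts scaled to a common library size after correction by TMM factors, which ranged from 0.804 to 1.06 in the resmetirom libraries and from 1.08 to 1.16 in the control libraries. The tissue is labelled liver, and 6 hepatocyte markers summed to between 89893 and 96414 CPM in resmetirom libraries and between 69749 and 79219 CPM in control libraries. In edgeR's quasi-likelihood test with Benjamini-Hochberg adjustment over 12207 genes, 560 genes passed an adjusted p of 0.05, which is 4.59% of those tested. The median log2 fold change over all tested genes was -0.0043.

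All 33 genes were abundant enough to be tested, and 0 of them passed. The background for that count is the 4.59% over all genes. At an unadjusted p of 0.05, 4 genes passed, Stat2 higher and H2-Eb1, H2-Aa and Ciita lower with resmetirom, where 17.8% of all tested genes passed. DESeq2, with 7.73% of all genes called, and limma-voom, with 4.56%, likewise called 0 of the 33 genes after adjustment. The log2 fold change lay below 0 for 22 genes and above 0 for 11, with a median of -0.15 and a range from -1.11 for Ciita to 0.36 for Stat2. On CPM corrected by TMM factors, only H2-Eb1 had groups that did not overlap, all resmetirom libraries being below all control libraries. On that scale 5.5% of all tested genes were separated in that direction. With library sizes alone, Ifi44, Ifitm3, Irf1, H2-Aa, H2-Ab1 and Ciita were separated lower too, but so were 22.7% of all tested genes.

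By gene group, the median log2 fold change was -0.19 for the type I targets, 0.26 for the interferon-γ-inducible genes, -0.0098 for the class I genes and -0.55 for the class II genes, beside -0.0043 over all tested genes. All 5 class II genes had values below 0, as had 13 of the 18 type I targets, 3 of the 5 class I genes and 1 of the 5 interferon-γ-inducible genes. In the authors' deposited TPM, which corrects for gene length, mean levels over the 8 libraries ran from 0.536 for Ciita and 0.834 for Oas2 to 886 for H2-K1 and 2666 for B2m.

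**Figure D1:**
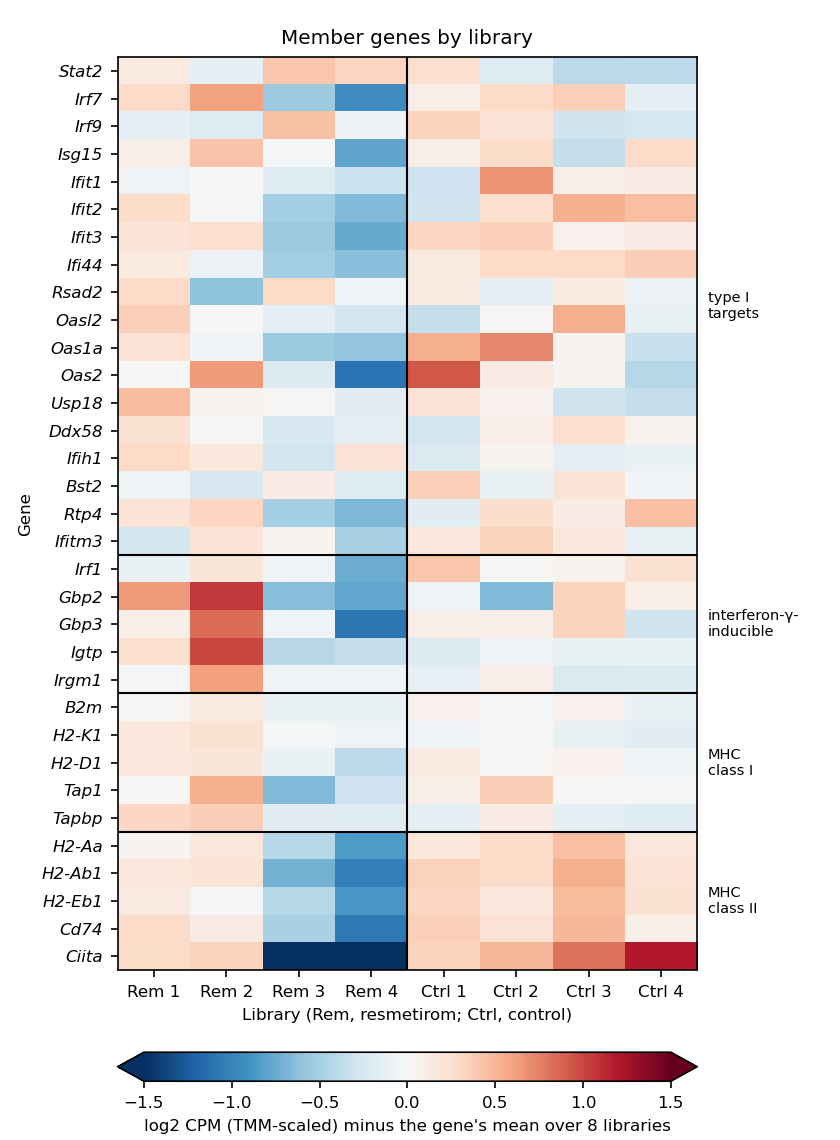
Each row is a gene and each column a library, resmetirom (Rem) left of control (Ctrl), and colour gives the gene's log2 CPM in that library minus its mean over the 8 libraries, limited at 1.5 (Ciita in Rem 3 and Rem 4 lies beyond). The MHC class II rows are low in Rem 3 and Rem 4, 4 of the 5 interferon-γ-inducible rows are highest in Rem 2, and Rem 4 is the lowest library for 20 of the 33 genes.

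Of the type I targets, the transcription factor genes did not share a direction. Stat2, a subunit of the response complex, was at 22.997, 19.0, 27.7 and 26.1 CPM in resmetirom libraries 1 to 4, against 24.6, 18.2, 15.8 and 15.8 CPM in control libraries 1 to 4. Control library 1 lay among the resmetirom libraries, so the groups overlapped, and the log2 fold change of 0.36 (SE 0.17) had an adjusted p of 0.276 in edgeR's test. Irf9, the DNA-binding subunit of that complex, averaged 25.8 ± 5.69 CPM with resmetirom and 25.6 ± 5.72 CPM in controls (SD, n = 4 each). Irf7, which amplifies interferon production, averaged 20.6 ± 9.69 CPM with resmetirom and 23.4 ± 3.47 CPM in controls, and its resmetirom libraries ran from 10.8 to 31.7 CPM.

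The cytosolic RNA sensors Ddx58 (RIG-I) and Ifih1 (MDA5) had log2 fold changes of -0.07 (SE 0.15) and 0.21 (SE 0.13). Most of the antiviral effectors had values below 0, none of which passed the test. Ifi44, an interferon-induced cytoplasmic protein, was at 3.61, 3.05, 2.26 and 2.101 CPM in the resmetirom libraries and at 3.59, 4.02, 3.95 and 4.20 CPM in the control libraries. The groups overlapped only through resmetirom library 1, just above the lowest control library, and the log2 fold change was -0.51 (SE 0.23, adjusted p = 0.282 in edgeR's test). Ifitm3, which blocks viral entry at membranes and was the most abundant type I target at a mean of 273 TPM, was at 93.3, 129, 116 and 80.2 CPM in the resmetirom libraries and at 126, 142, 127 and 105 CPM in the control libraries. Those ranges overlapped, and its log2 fold change was -0.26 (SE 0.15, adjusted p = 0.418 in edgeR's test).

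The RNA-binding proteins Ifit1, Ifit2 and Ifit3 had log2 fold changes of -0.31, -0.44 and -0.36, and Oas1a, which makes the activator of RNase L, had -0.50 (SE 0.27). Oas2 had -0.29 and Oasl2 -0.06. Isg15, the ubiquitin-like modifier, and Usp18, which removes it, had -0.11 (SE 0.26) and 0.19 (SE 0.18). The virion tether Bst2 had -0.20 (SE 0.12), the chaperone Rtp4 -0.28 (SE 0.23) and Rsad2 (viperin) 0.02 (SE 0.20). Every adjusted p in this group was at or above 0.276 in edgeR's test. Ifit3 with Ifit3b and Oas1a with its tandem copies share much of their sequence, and the sources used here do not say how such reads were assigned, so their single values are uncertain.

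For the interferon-γ-inducible genes, 1 resmetirom library stood above the rest. Igtp (Irgm3), an immunity-related GTPase, was at 23.7, 40.1, 14.98 and 15.7 CPM in resmetirom libraries 1 to 4 and at 17.4, 19.3, 18.6 and 18.6 CPM in the control libraries. Gbp2, a guanylate-binding protein, was at 11.4, 15.3, 4.73 and 4.27 CPM with resmetirom, against 7.03, 4.64, 9.22 and 7.86 CPM in controls. For both genes, resmetirom libraries 1 and 2 lay above every control library, and libraries 3 and 4 of Igtp lay below every one.

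Irgm1, which controls the other GTPases of its family, was at 41.4, 63.9, 40.0 and 40.1 CPM in the resmetirom libraries and at 38.3, 44.0, 35.9 and 36.2 CPM in the control libraries. Resmetirom library 2 stood above all others, and the log2 fold change was 0.26 (SE 0.15, adjusted p = 0.427 in edgeR's test). Irf1, the transcription factor that relays much of the interferon-γ response, lay the other way, at 15.5, 18.8, 16.0 and 9.96 CPM with resmetirom and 22.1, 16.9, 17.3 and 19.5 CPM in controls. Its groups overlapped (log2 fold change -0.33, SE 0.18, adjusted p = 0.374 in edgeR's test). Gbp3 had a log2 fold change of 0.02 (SE 0.33). Resmetirom library 2 was the highest of the 8 libraries for 4 of these 5 genes, all but Irf1. Without it, 4 of the 5 values lay below 0 and the median was -0.070, in place of 0.26.

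Markers of T and NK cells, the usual source of interferon-γ, were scarce. Their 10 markers summed to 9.98, 18.9, 4.46 and 5.42 CPM in resmetirom libraries 1 to 4, against 3.07, 4.26, 3.77 and 1.88 CPM in the control libraries. Every resmetirom sum was above every control sum, and resmetirom library 2 was highest here as well. Of the 10 markers, 4 were abundant enough to test, and 3 were at 0 in at least 1 library. After adjustment 0 of the 4 were called, beside 4.59% of all tested genes. At an unadjusted p of 0.05, 3 of the 4 passed, all higher, where 17.8% of all tested genes passed. Nkg7 had the smallest p, at 1.38 ± 0.83 CPM with resmetirom and 0.305 ± 0.197 CPM in controls. Its log2 fold change was 2.16 (SE 0.65, adjusted p = 0.0897 in edgeR's test), and its groups overlapped. Ifng itself had 5 counts in resmetirom library 2, 0 in the other resmetirom libraries, 3 in control library 3 and 0 in the other control libraries. The part of these cells in the values of the interferon-γ-inducible genes was not tested.

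MHC class I genes had log2 fold changes between -0.15 and 0.19, and none passed the test. B2m, the light chain shared by all class I molecules, was at 1453, 1589, 1342 and 1336 CPM in the resmetirom libraries and at 1503, 1416, 1501 and 1338 CPM in the control libraries, and its log2 fold change was -0.01 (SE 0.09, adjusted p = 0.976 in edgeR's test). H2-K1, a classical heavy chain, was at 983, 1036, 864 and 853 CPM with resmetirom and at 850, 888, 818 and 792 CPM in controls. Only control library 2 exceeded the lowest resmetirom libraries, and the log2 fold change was 0.16 (SE 0.09, adjusted p = 0.419 in edgeR's test).

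Tapbp (tapasin), which holds class I molecules at the peptide transporter, was at 68.3, 71.0, 49.4 and 48.5 CPM in the resmetirom libraries and at 50.1, 59.8, 50.1 and 48.7 CPM in the control libraries. Resmetirom libraries 1 and 2 were above every control library and library 4 was below every one, and its log2 fold change was 0.19 (SE 0.14, adjusted p = 0.564 in edgeR's test). H2-D1, the other classical heavy chain here, had -0.06 (SE 0.12), and Tap1, a subunit of the peptide transporter, had -0.15 (SE 0.22). Resmetirom library 2 was the highest of the 8 libraries for all 5 class I genes. Reads of H2-K1 and H2-D1 can be shared with each other and with the H2-Q and H2-T genes, so their separate values are uncertain.

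The MHC class II genes had the lowest median log2 fold change of the 4 gene groups, with values from -1.11 to -0.48. H2-Ab1, H2-Aa and H2-Eb1, which encode the chains of the class II molecules I-A and I-E, lie together on chromosome 17 between 34257689 and 34316674 (GRCm38). H2-Eb1 was at 38.8, 35.0, 26.3 and 19.3 CPM in resmetirom libraries 1 to 4, against 44.5, 40.0, 49.2 and 41.6 CPM in control libraries 1 to 4. No resmetirom library reached the lowest control library. The log2 fold change was -0.55 (SE 0.19), and its adjusted p of 0.143 in edgeR's test was the smallest among the 33 genes.

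H2-Aa was at 50.3, 55.3, 36.4 and 27.3 CPM with resmetirom and at 54.6, 59.8, 67.2 and 55.0 CPM in controls. Resmetirom library 2 alone lay within the control range, and the log2 fold change was -0.48 (SE 0.19, adjusted p = 0.223 in edgeR's test). H2-Ab1 was at 38.9, 39.9, 21.2 and 16.8 CPM with resmetirom and at 43.9, 42.2, 50.1 and 39.8 CPM in controls. Resmetirom library 2 alone entered the control range, by a small margin, and the log2 fold change was -0.59 (SE 0.27, adjusted p = 0.293 in edgeR's test).

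Cd74, the invariant chain that fills the class II groove until peptide loading, was the most abundant of these genes at a mean of 156 TPM. It was at 138, 124, 80.8 and 53.6 CPM in the resmetirom libraries and at 145, 131, 160 and 120 CPM in the control libraries. Libraries 1 and 2 of resmetirom lay within the control range and libraries 3 and 4 far below it, and the log2 fold change was -0.49 (SE 0.27, adjusted p = 0.425 in edgeR's test). Ciita, the coactivator of class II genes, which is named here after its values were seen, had 31, 28, 6 and 7 counts in the resmetirom libraries and 39, 42, 56 and 67 counts in the control libraries. That is 1.75, 1.82, 0.400 and 0.474 CPM against 1.82, 2.03, 2.54 and 3.31 CPM, and the log2 fold change of -1.11 (SE 0.47) had an adjusted p of 0.239 in edgeR's test.

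Each of the 5 class II genes was lower in resmetirom libraries 3 and 4 than in every other library. Leaving out resmetirom library 4 moved the class II median to -0.39 and leaving out library 1 moved it to -0.71, and only in the second case was a gene called. That gene was H2-Eb1, at a log2 fold change of -0.71 and an adjusted p of 0.0489 in edgeR's test, when 1.93% of all genes were called lower.

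**Figure D2:**
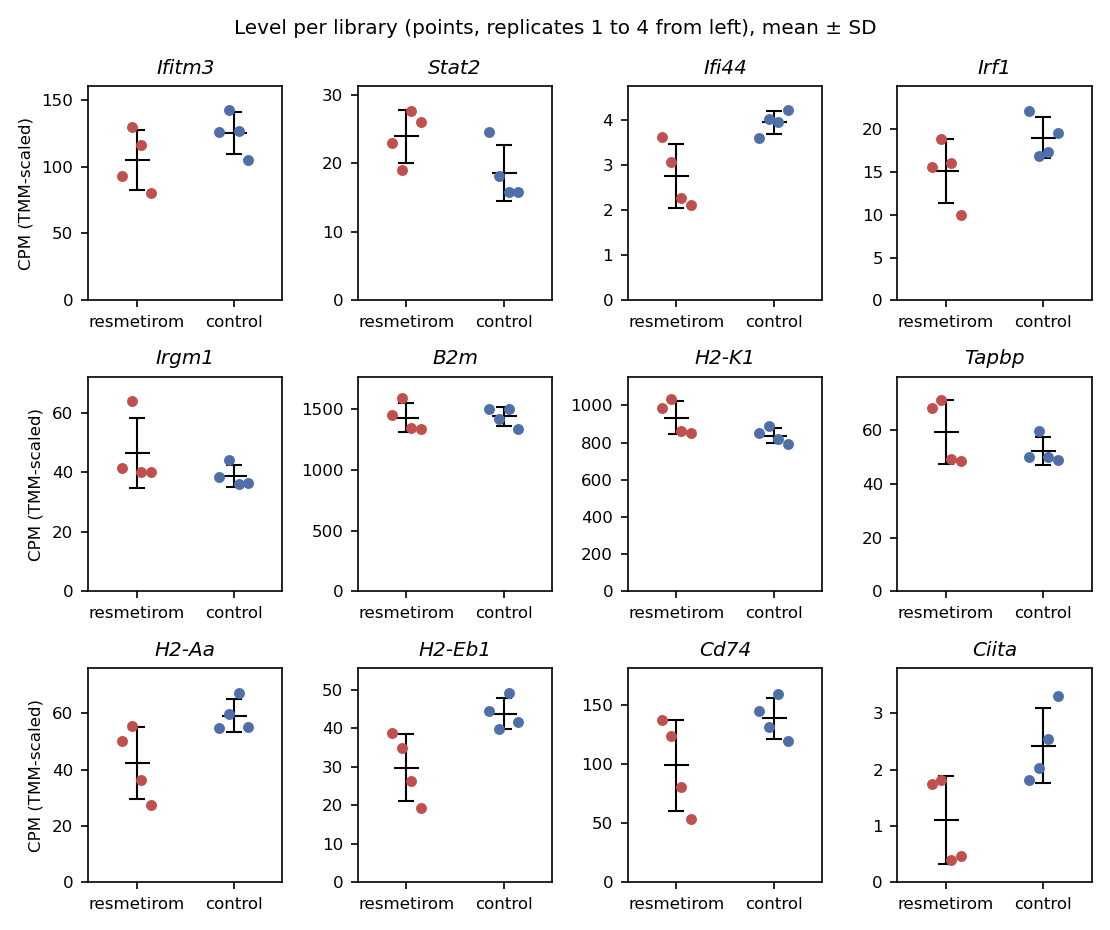
CPM corrected by TMM factors in each library for 12 genes, resmetirom left of control, with points for replicates 1 to 4 from left, a bar for the mean and whiskers for the SD (n = 4 each). H2-Eb1 is the gene whose groups do not overlap, with resmetirom points between 19.3 and 38.8 CPM and control points between 40.0 and 49.2 CPM.

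Because genes of 1 library share its scaling, differences between gene groups within a library do not depend on the scaling chosen. The mean log2 count of the 5 class II genes minus that of the 5 class I genes was -3.46 ± 0.42 in resmetirom libraries and -2.69 ± 0.18 in control libraries (SD, n = 4 each), a difference of -0.77. The groups did not overlap, with resmetirom libraries between -3.96 and -3.03 and control libraries between -2.89 and -2.50. In counts, there were 8.60, 7.72, 5.99 and 4.43 class II counts per 100 class I counts in resmetirom libraries 1 to 4, against 9.68, 9.44, 11.2 and 9.62 in control libraries 1 to 4.

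The mean of the type I targets minus that of the class I genes was -4.29 ± 0.14 in resmetirom libraries and -4.12 ± 0.01 in control libraries, a smaller difference of -0.18 without overlap. Class II minus type I targets was 0.83 ± 0.41 with resmetirom and 1.42 ± 0.18 in controls, and the groups just missed each other, the highest resmetirom library being at 1.217 and the lowest control library at 1.222. The interferon-γ-inducible genes minus the class I genes overlapped, at -3.84 ± 0.35 with resmetirom and -3.86 ± 0.13 in controls. So did the interferon-γ-inducible genes minus the type I targets, at 0.46 ± 0.39 with resmetirom and 0.25 ± 0.14 in controls. The differences without overlap share gene groups and are not independent of each other. These differences are given as a description with no test, since the groups of genes were chosen with earlier results known.

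**Figure D3:**
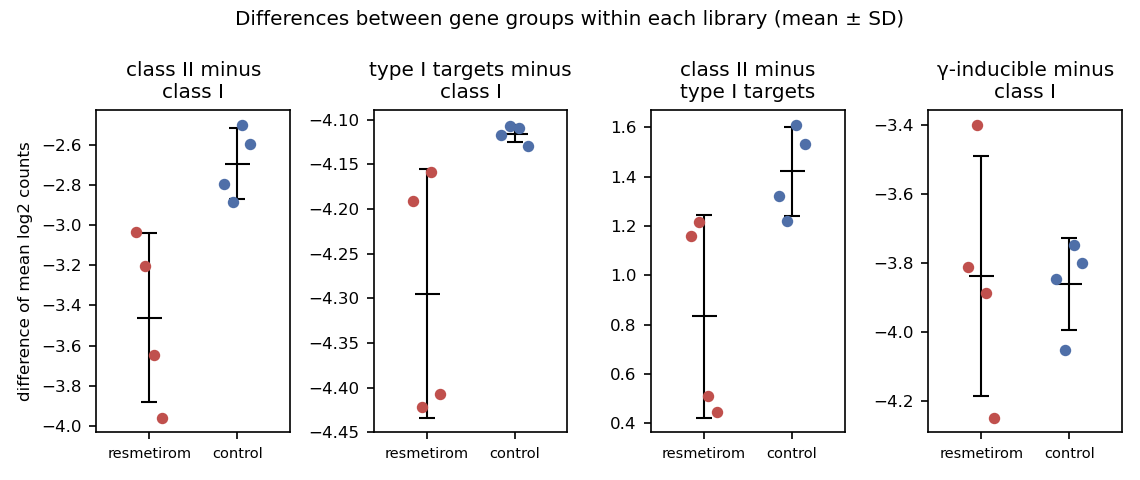
Each point is a library, resmetirom left of control, and the y axis gives the mean log2 count of one gene group minus that of another within the library, with the mean and SD (n = 4 each); each panel has its own axis. Class II minus class I lies between -3.96 and -3.03 in resmetirom libraries and between -2.89 and -2.50 in control libraries, while interferon-γ-inducible minus class I overlaps.

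Class II genes are expressed by few cell types of the liver, and in bulk RNA fewer cells of a type and less RNA per cell cannot be told apart. The 11 Kupffer cell and macrophage markers summed to 1151, 990, 590 and 436 CPM in resmetirom libraries 1 to 4, against 904, 695, 1017 and 712 CPM in control libraries 1 to 4. The resmetirom libraries therefore stood in the same order for macrophage markers as for the summed class II genes, which were at 267, 256, 165 and 117 CPM. None of the 11 markers was at 0 in any library and 0 were called by edgeR's test, beside 4.59% of all tested genes.

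The 6 monocyte markers followed that order too, at 227, 192, 145 and 86.8 CPM with resmetirom, against 216, 185, 287 and 190 CPM in controls. Of these 6 markers 0 were called, beside 4.59% of all tested genes. Dendritic cell and B cell markers did not stand in that order. Dendritic cell markers summed to 13.4, 9.42, 12.9 and 11.1 CPM in resmetirom libraries 1 to 4, and to between 12.2 and 13.8 CPM in control libraries. B cell markers summed to 12.8, 6.56, 2.46 and 4.27 CPM in resmetirom libraries 1 to 4, and to between 4.26 and 9.91 CPM in control libraries. Counted per 100 macrophage marker counts, the class II genes had 23.2, 25.8, 28.0 and 26.9 counts in resmetirom libraries 1 to 4 and 32.1, 39.6, 32.3 and 36.4 counts in control libraries 1 to 4. The groups did not overlap on this ratio either, nor when Marco was left out of the markers, where it ranged from 25.8 to 29.6 with resmetirom and from 32.6 to 40.4 in controls. Marco, a scavenger receptor of macrophages, was left out because it was at 115 and 126 CPM in resmetirom libraries 1 and 2 and between 14.03 and 37.3 CPM in the other 6 libraries. Taken beside the monocyte markers instead, the groups overlapped. Resmetirom library 4 had 117 CPM of class II genes beside 86.8 CPM of monocyte markers, and control library 3 had 328 beside 287 CPM. The ratios to macrophage markers are given as a description with no test, and Marco was left out with its values known. The part of macrophage and monocyte content in the class II values was not tested.

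**Figure D4:**
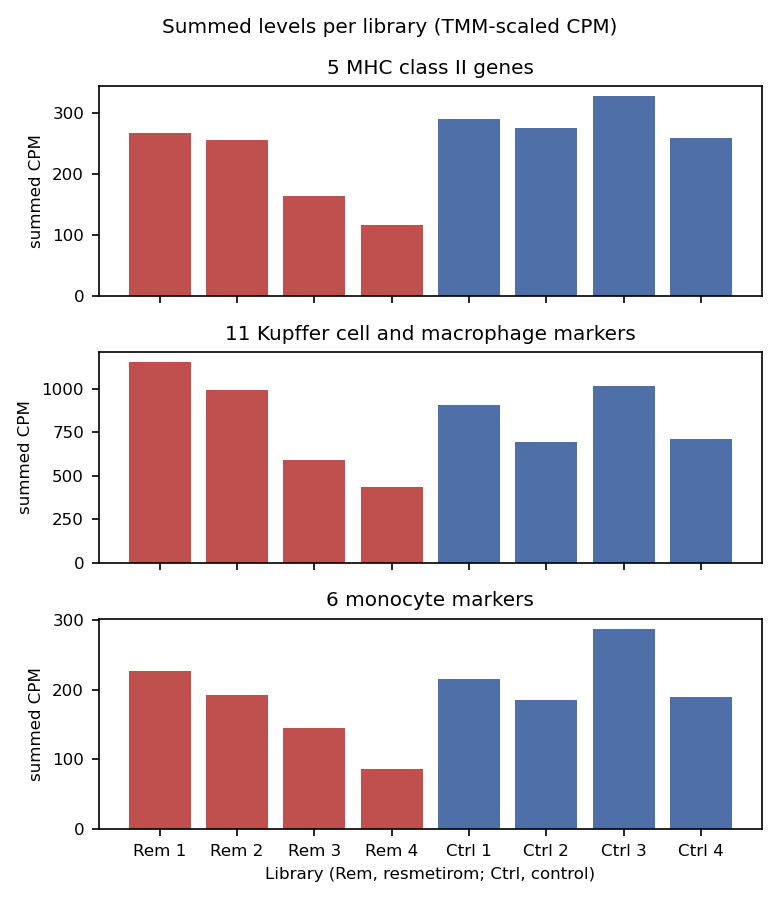
Bars give, for each library (resmetirom, Rem, left of control, Ctrl), the summed CPM of the 5 MHC class II genes, of 11 Kupffer cell and macrophage markers and of 6 monocyte markers. In all 3 panels Rem 4 is the lowest library and Rem 3 the next lowest, with 117 CPM for class II and 436 CPM for the macrophage markers in Rem 4.

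The rest of the interferon and presentation pathways was read from the same fit, in lists of 17 to 42 genes. Of the 17 other class I genes, 1 passed the test, beside 4.59% of all tested genes. Cd1d1, which presents lipids to NKT cells, was at 285, 271, 285 and 290 CPM in resmetirom libraries 1 to 4, against 184, 236, 196 and 197 CPM in control libraries 1 to 4. It rose with resmetirom, every resmetirom library being above every control library, and its log2 fold change was 0.48 (SE 0.09, adjusted p = 0.00979 in edgeR's test), although on the log2(TPM + 1) scale, where the median of all genes was -0.41, its value was -0.024. With library sizes alone the call was lost too, at 0.17 (adjusted p = 0.309 in edgeR's test). The sum of the 6 hepatocyte markers given above was likewise higher in every resmetirom library, although 2 of the 6 overlapped between the groups. The part of hepatocyte content in this result was not tested. Reads of its close copy Cd1d2 may be counted with it.

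None of the 10 tested genes among interferons, receptors and kinases passed. Ifnb1, Ifnl2 and Ifnl3 had 0 counts in every library. Ifngr2, the signalling chain of the interferon-γ receptor, was at 21.9, 17.9, 17.5 and 18.8 CPM with resmetirom and at 25.1, 22.8, 23.9 and 24.1 CPM in controls. Its groups did not overlap, and its log2 fold change of -0.33 (SE 0.11) had an adjusted p of 0.114 in edgeR's test. The chains of the type I receptor, Ifnar1 and Ifnar2, had log2 fold changes of -0.11 (SE 0.10) and 0.03 (SE 0.10).

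In the remaining lists 0 genes passed, of 19 nucleic acid sensors and adaptors, 40 other interferon-stimulated effectors, 20 other interferon-γ-inducible genes and 16 other class II genes tested. Their unadjusted counts at p of 0.05 were 2, 4, 3 and 1, where 17.8% of all tested genes passed. Psme2, a subunit of the immunoproteasome's activator, had the smallest p of the interferon-γ list, at 67.1 ± 1.88 CPM with resmetirom and 55.8 ± 2.53 CPM in controls (SD, n = 4 each). The groups did not overlap, and the adjusted p was 0.0951 in edgeR's test for a log2 fold change of 0.27. Ifitm2, a close relative of Ifitm3, averaged 85.5 ± 17.9 CPM with resmetirom and 116 ± 12.0 CPM in controls, with an adjusted p of 0.106. Trim25, the ubiquitin ligase that activates RIG-I, had a log2 fold change of 0.29 (adjusted p = 0.263 in edgeR's test). H2-DMb1, a chain of the peptide editor of class II, had -0.60 (SE 0.25, adjusted p = 0.236 in edgeR's test), the lowest of the 16 tested genes of its list. That list had a median of -0.10, with 10 values below 0 and 6 above, up to 0.44 for H2-DMb2. DESeq2 called Psme2, H2-T23 and Socs3 besides Cd1d1 in these lists.

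How the libraries were scaled set how many of the 33 genes were called. With library sizes alone, 5 genes were called lower (Ifitm3, Bst2, Irf1, H2-Eb1 and H2-Aa), but 16.1% of all genes were then called lower and the median of all tested genes stood at -0.31. The authors' deposited table gives a log2 fold change below 0 for all 33 genes and an adjusted p under 0.05 for 17 of them, all lower. Those are 9 type I targets, 1 interferon-γ-inducible gene (Irf1), 2 class I genes (B2m and H2-D1) and all 5 class II genes. Of the 16019 genes with counts in the authors' deposited table, 32.4% were lower at that threshold, and their median log2 fold change was -0.49. Testing the deposited TPM with limma on log2(TPM + 1) or log2(TPM + 0.1) also called 17 of the 33 genes, all lower, where 38% and 37.6% of all tested genes were called lower. Against that median, the authors' deposited values for the 4 groups had medians of -0.68 for type I targets, -0.23 for interferon-γ-inducible genes, -0.49 for class I and -0.98 for class II genes.

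**Figure D5:**
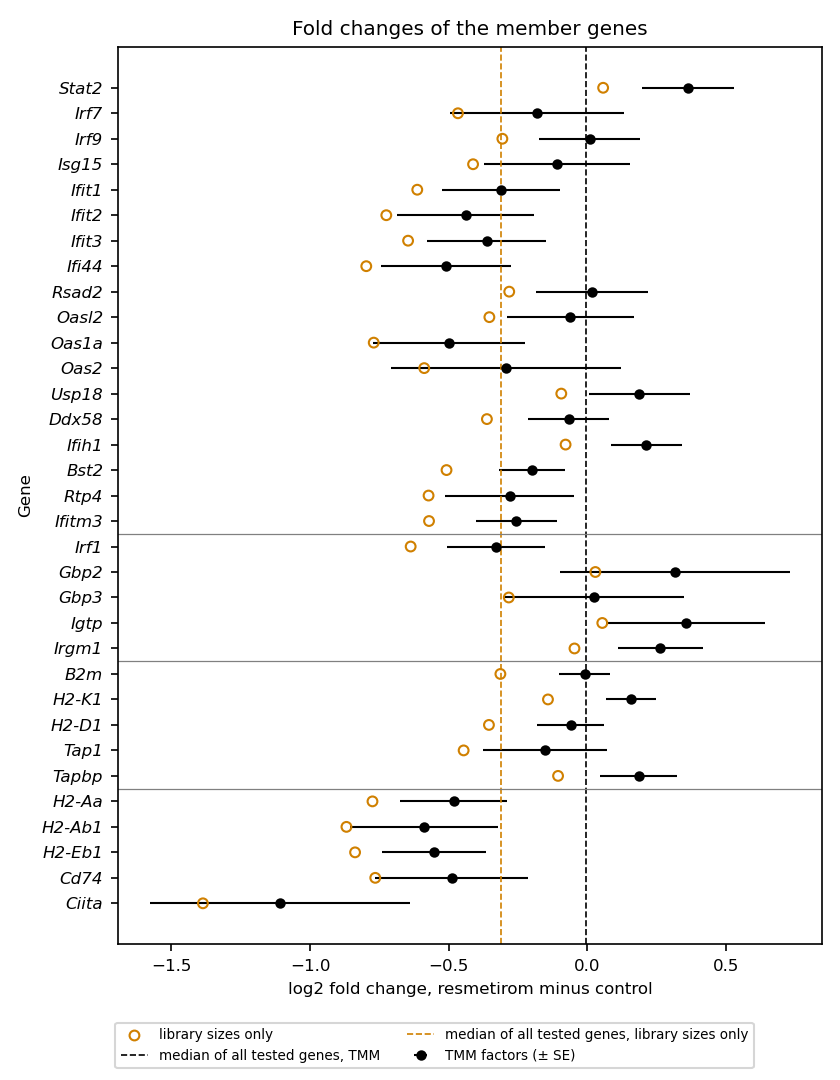
Log2 fold change, resmetirom minus control, of each of the 33 genes with TMM factors (filled points, whiskers are the SE) and with library sizes alone (open points), and dashed lines for the median of all tested genes under each scaling. The open points and their line, at -0.31, are shifted down together, and the 5 class II genes lie left of the line under both scalings.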

How the data were processed

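Liver RNA of 4 resmetirom and 4 control libraries was analysed, grouped by the titles of the samples. Oligo(dT) beads captured the mRNA, per the labels' protocols, and 2 possible instruments are named without saying which library went on which. The tools in the submitters' processing notes, listed with no role, are StringTie 1.3.1, HISAT2 2.1.0, Bowtie2 2.2.8, fastp 0.18.0, edgeR, DESeq2 and RSEM, with build mm10. The authors deposited raw counts, whole numbers for each gene in each library, per the file headers. They also deposited TPM, in which gene length is divided out and every library has the same sum. The authors' table holds a log2 fold change, within 0.01 of the log2 ratio of the groups' mean TPM (a mean of 0 set to 0.001) in 22009 of 22013 rows, and a p-value with an adjusted p-value, per the file headers; the sources used here do not name the tool behind these. They do not say how strand or reads shared between gene copies were handled, so reads of antisense genes and of near-identical copies cannot be told apart.

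The counts were fitted as deposited, in 1 model of all genes, with edgeR 4.0.16 in R 4.3.3 (quasi-likelihood, robust, TMM factors, filterByExpr), and p-values were adjusted by Benjamini-Hochberg over 12207 genes at a threshold of 0.05. Alternatives were median-of-ratios and upper-quartile factors, library sizes alone, no filter, at least 1 CPM in 4 libraries, DESeq2 1.42.0, limma-voom (limma 3.58.1), no robust estimation, limma on log2(TPM + 1) and log2(TPM + 0.1), the replicate number as a block, and each library left out. The fit was tested on simulated data. Gene positions came from GENCODE M21 (GRCm38). The genes described with every library's value were, in each group of members, the 2 with the smallest p and the one with the highest mean TPM; Igtp, Gbp2, H2-Ab1 and Ciita were added after their values were seen. Members and lists were chosen with earlier results of these data known. Of the pathway lists, Mx2, Oas1b, Gbp11, Ifgga1 and Cxcl11 were not matched and are not analysed here. Marker lists for neutrophils, sinusoidal endothelium, stellate cells and cholangiocytes held 0 called genes, beside 4.59% of all tested genes. All 6 sinusoidal endothelium markers had log2 fold changes below 0 (median -0.25), as had 5 of 6 stellate cell, 2 of 3 tested neutrophil and 1 of 5 cholangiocyte markers. At an unadjusted p of 0.05 in edgeR's test, 2 of the 6 sinusoidal endothelium markers passed, where 17.8% of all tested genes passed. Of the 6 hepatocyte markers, 2 (Cps1 and Serpina1a) were called higher with resmetirom.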

Additional observations from a re-analysis of the deposited data

Results flagged for a closer look

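Among the 4 libraries of each group, 3 values of the 33 genes stood far from the other 3 by Dixon's ratio, out of 66 groups of 4 libraries examined, where chance flags about 1 in 20 groups. Irgm1 in resmetirom replicate 2 was at 63.9 CPM, with the other resmetirom libraries between 40.0 and 41.4 CPM. Irf9 in resmetirom replicate 3 was at 34.2 CPM, with the others between 22.1 and 23.9 CPM. Tapbp in control replicate 2 was at 59.8 CPM, with the other control libraries between 48.7 and 50.1 CPM.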

How the results depend on the processing

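The count of all genes called was 560 and moved to 2112 with library sizes alone, 943 with DESeq2, 4762 on log2(TPM + 1) and 4721 on log2(TPM + 0.1), and leaving out 1 library gave 331 to 544. Of the 33 genes, 0 were called under TMM, median-of-ratios or upper-quartile factors, either other filter, DESeq2, limma-voom, no robust estimation or the replicate block, 5 with library sizes alone, and 17 on log2(TPM + 1) and 17 on log2(TPM + 0.1), where 38% and 37.6% of all genes were called lower; leaving out 1 library gave 0 to 1. Of the pathway lists (10, 19, 40, 20, 17 and 16 tested genes), 1 gene was called, beside 4.59% of all tested genes. With library sizes alone 7 were called, beside 17.3% of all genes, and with DESeq2 4, beside 7.73%. On either TPM scale 41 were called, beside 39% of all genes on log2(TPM + 1) and 38.7% on log2(TPM + 0.1). With 1 library left out 1 to 3 were called, beside 2.68% to 4.41% of all genes. Group medians moved, with library sizes alone, log2(TPM + 1) and log2(TPM + 0.1) in turn, to -0.49, -0.61 and -0.73 for type I targets, to -0.046, -0.26 and -0.35 for interferon-γ-inducible genes and to -0.31, -0.52 and -0.52 for class I genes; class II genes moved from -0.55 to -0.84, -1.07 and -1.09 under the same settings. With 1 library left out, the medians ran from -0.33 to -0.048 for type I targets, -0.070 to 0.33 for interferon-γ-inducible genes, -0.065 to 0.045 for class I and -0.71 to -0.39 for class II genes.

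These genes changed sign, none of them past the threshold under that setting. With library sizes alone they were Irf9 (-0.31), Rsad2 (-0.28), Usp18 (-0.094), Ifih1 (-0.078), Gbp3 (-0.28), Irgm1 (-0.046), H2-K1 (-0.14), Tapbp (-0.11), Trim25 (-0.027) and Psme2 (-0.039). On log2(TPM + 1) and log2(TPM + 0.1) they were Stat2 (-0.11 and -0.13), Irf9 (-0.47 and -0.49), Rsad2 (-0.39 and -0.51), Usp18 (-0.28 and -0.31), Ifih1 (-0.21 and -0.24), Gbp2 (-0.26 and -0.35), Gbp3 (-0.52 and -0.67), Igtp (-0.25 and -0.28), Irgm1 (-0.25 and -0.26), H2-K1 (-0.35 and -0.35), Tapbp (-0.35 and -0.36), Trim25 (-0.21 and -0.22), Psme2 (-0.24 and -0.24) and Cd1d1 (-0.024 and -0.025). With limma-voom they were Rsad2 (-0.016) and Gbp3 (-0.10). Leaving out 1 library in turn gave log2 fold changes on both sides of 0 for Irf7 (-0.47 to 0.027), Irf9 (-0.16 to 0.13), Isg15 (-0.29 to 0.076), Rsad2 (-0.085 to 0.18), Oasl2 (-0.20 to 0.14), Oas2 (-0.61 to 0.028), Ddx58 (-0.16 to 0.010), Gbp2 (-0.070 to 0.55), Gbp3 (-0.34 to 0.27), Igtp (-0.027 to 0.52), B2m (-0.065 to 0.021), H2-D1 (-0.13 to 0.045) and Tap1 (-0.40 to 0.0072). The cause was not tested. Libraries of the same number did not deviate together (correlations of -0.34, 0.21, -0.21 and -0.09), so the numbers were not taken as pairs; the replicate block called 406 genes in all and 0 of the 33, and turned Rsad2 (-0.016) and Gbp3 (-0.094).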
